A study of Mus musculus with 14 samples.

Results

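Cytochrome P450 and flavin monooxygenase genes were examined in mouse liver cancer cells with and without ACLY and ACSS2. A gene was included where its symbol in the deposited table was Cyp or Fmo followed by a digit, leaving out Cyp51 and symbols that end in -ps, and Por was added because its product passes electrons to the microsomal P450 enzymes. This gave 109 genes of 24972 in the table. They were 101 P450 symbols, 7 Fmo genes and Por, and 2 of the P450 symbols, Cyp4b1-ps2 and Cyp4x1os, are a pseudogene and an antisense transcript rather than enzymes.

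The study asked how cells supply acetyl-CoA when ACLY, which makes it from citrate, and ACSS2, which makes it from acetate, are lost. Poly(A) RNA was sequenced from 14 libraries after 24 hours in DMEM with 10% calf serum. All cells came from tumors that diethylnitrosamine had induced in mice with floxed Acly, and all carried a LentiCRISPR v2 vector and had been selected with puromycin. The 4 WT libraries were from D42V, a bulk population with the vector and no guide. The 4 ACLY KO libraries were from D42C4V, a line grown from 1 cell after adenoviral Cre had removed Acly, which then also received the vector without a guide. The 3 ACSS2 KO libraries (replicates 1, 2 and 4) were from D42 Sg2-3, a CRISPR clone of the WT cells. The 3 DKO1 libraries (replicates 1, 3 and 4) were from D42C4 Sg2-2, a CRISPR clone of the ACLY KO cells, so the DKO1 cells share the Cre event of the ACLY KO cells. Each knockout was 1 clone or came from 1, so genotype and clone cannot be told apart. Per the methods the sequencing was not independently repeated, and the p-values measure the spread between these libraries, which may be technical.

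P450 enzymes are heme proteins that insert an oxygen atom into their substrate. Most sit in the endoplasmic reticulum and take electrons from Por, while those of mitochondria use ferredoxin. Flavin monooxygenases oxidize nitrogen and sulfur atoms of foreign and dietary compounds without heme. The liver is the main site of drug and bile acid oxidation by these enzymes, and hepatocytes lose many of them when they are cultured or transformed.

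The values are normalized counts, that is, estimated reads per gene after the authors' scaling between libraries. Their totals were between 23565707 and 26946164 per library. The Acly transcript, which checks the labels, had group means of 6050 ± 423 normalized counts for WT (SD, n = 4) and 5684 ± 124 for ACSS2 KO (SD, n = 3), against 1001 ± 56.1 for ACLY KO (SD, n = 4) and 946 ± 12.9 for DKO1 (SD, n = 3). Acss2 had 237 ± 11.5 for WT and 132 ± 4.88 for ACSS2 KO, against 718 ± 56.7 for ACLY KO and 535 ± 69.1 for DKO1, and because a CRISPR edit need not lower the transcript this does not check the ACSS2 edit. In DKO1 replicate 4 and WT replicate 2 the deviations from the group mean ran with transcript length (Spearman's rho of -0.708 and -0.616 across the tested genes with a length, which are not independent replicates), so the counts of genes called in each comparison, class and list were also made without these libraries. Of the hepatocyte markers, Krt8 had group means between 18235 and 26051, while those of Alb were between 11.3 and 134 (highest in ACSS2 KO), those of Apob between 30.1 and 282 (highest in DKO1), those of Ttr between 1.78 and 31.7 (highest in ACSS2 KO) and those of Apoa1 between 0 and 0.98. The cholangiocyte markers Krt7, Krt19, Epcam and Sox9 summed to 21647 to 31969 for WT, 8608 to 9374 for ACLY KO, 18274 to 20516 for ACSS2 KO and 11195 to 18276 for DKO1. Krt7 and Krt19 made up nearly the whole of these sums. Epcam and Sox9 were highest in ACSS2 KO, with means of 19.7 and 723 against 12.7 and 621 in WT.

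Of the 109 genes, 23 (21.1%) were detected, meaning that the mean of some genotype reached 10 normalized counts. Another 50 were above 0 in some library but under 10 in each genotype, and 36 were listed at 0 in every library. The number detected was 17 in each of WT, ACLY KO and ACSS2 KO, and 22 in DKO1. The same number was not counted over all genes, so these are given as a description. The textbook P450 genes of differentiated liver were low or listed at 0. Cyp4a10, a fatty acid hydroxylase, and Cyp8b1, the sterol hydroxylase that sets cholic acid output, were listed at 0, and Cyp2e1, which oxidizes ethanol, and Cyp7a1, the rate-limiting enzyme of bile acid synthesis, had means over all libraries of 3.14 and 1.87. Cyp1a2, Cyp3a11, Cyp4a14, Cyp17a1 and Cyp19a1 had means under 1. The values are not whole reads, so no counting interval was computed, and a gene at this level may be below what the depth can show.

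**Figure D1:**
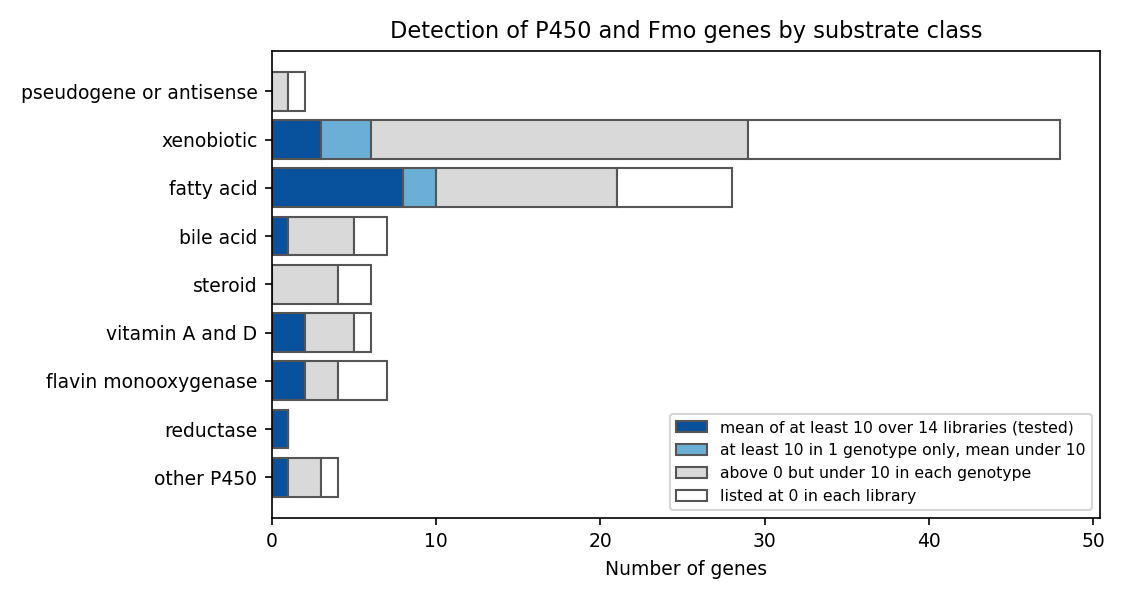
Horizontal bars give the number of genes in each substrate class, split by whether the mean over the 14 libraries was at least 10 normalized counts (tested), at least 10 in 1 genotype only, above 0 but under 10 in each genotype, or listed at 0. The fatty acid class holds 8 of the 18 tested genes, the xenobiotic class 3, and the steroid class none.

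The classes differed in how much of them was present. In the fatty acid class (families Cyp4, Cyp2j and Cyp2u) 10 of 28 genes (35.7%) were detected, against 6 of 48 (12.5%) in the xenobiotic class (families Cyp1, Cyp3a and most of Cyp2). In the bile acid class only Cyp39a1 of 7 genes (14.3%) was detected, and in the steroid hormone class 0 of 6, with a highest value in any library of 8.59. The remaining detected genes were Cyp26b1 and Cyp27b1 of 6 vitamin A and D genes, Fmo2 and Fmo5 of 7 flavin monooxygenases, Cyp20a1, whose substrate is not known, and Por. Of the drug-metabolizing families, the 15 Cyp2c genes summed to between 2.34 and 32.8 normalized counts per library, the 9 Cyp2d genes to at most 1.71, the 4 Cyp2a genes to at most 1.15 and the 5 Cyp2b genes to at most 46.4. The 9 Cyp3a genes reached more, with at most 44.4 for WT and 52.6 for ACSS2 KO, 122 to 148 for ACLY KO and 301 to 395 for DKO1, nearly all of it Cyp3a13. These are shares of genes, described without a test.

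A mean of at least 10 over all 14 libraries was required for the test, which 18 of the 109 genes reached. In the whole table of 24972 genes, 12693 were tested. A gene could pass through its level in the genotype where it was high, and this held for Cyp27b1, whose mean was 10.9 over all libraries and 9.33 without DKO1. The 5 genes that were detected without reaching this mean were named after their values were seen. They were Cyp2c55, Cyp2b10 and Cyp2b19 of the xenobiotic class and Cyp2j6 and Cyp4f40 of the fatty acid class. Cyp2c55 was at 19.4 to 28.4 in DKO1 and at most 13.2 elsewhere, and Cyp2j6 was at 13.5 to 15.3 in DKO1 and at most 3.57 elsewhere. Cyp2b10 was at 4.81 to 20.9 and Cyp2b19 at 4.83 to 23.1 in DKO1, a spread that covers values seen in the other genotypes. Cyp4f40 was the exception in direction, at 12.2 to 21.4 in ACLY KO and at most 6.14 elsewhere.

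Per kilobase of the longest protein-coding transcript model, Por had the highest level in WT, 1240 normalized counts, followed by Cyp20a1 at 517, Cyp4b1 at 497, Cyp39a1 at 289, Cyp4f16 at 217, Cyp2s1 at 101 and Cyp26b1 at 75.3. On the same per kilobase scale in DKO1, Por was at 1888, Cyp4b1 at 1599, Cyp20a1 at 432, Cyp4f16 at 327, Cyp4a12b at 302, Cyp39a1 at 186 and Cyp3a13 at 112. Cyp4a12b and Cyp3a13 were at 31.3 and 13.8 in WT.

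The sequences around the transcription starts of 4 genes are shown because these genes carry the main differences described here: Por, the shared electron donor, Cyp4b1, the most abundant fatty acid P450, Cyp3a13, whose level differed most in the xenobiotic class, and Fmo2, which differed most between ACSS2 KO and WT. Each runs 5′ to 3′ on the gene's strand from 250 bases before to 50 bases after the RefSeq start in GRCm38.p6. They lie at chr5:135688895-135689194 (plus strand) for Por, chr4:115647672-115647971 (minus) for Cyp4b1, chr5:137921570-137921869 (minus) for Cyp3a13 and chr1:162898709-162899008 (minus) for Fmo2, and span the start of the first exon. RefSeq lists 2 starts for Fmo2 and the most upstream is used. Capitals mark matches on either strand to GCGTG (the core of the site of the aryl hydrocarbon receptor, AHR) or CCAAT.
Por: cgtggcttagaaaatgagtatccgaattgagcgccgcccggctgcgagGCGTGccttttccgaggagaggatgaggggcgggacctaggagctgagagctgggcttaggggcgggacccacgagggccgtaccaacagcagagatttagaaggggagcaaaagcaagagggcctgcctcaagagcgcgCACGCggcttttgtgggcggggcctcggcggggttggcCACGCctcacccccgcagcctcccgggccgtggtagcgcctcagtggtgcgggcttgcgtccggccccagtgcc
Cyp4b1: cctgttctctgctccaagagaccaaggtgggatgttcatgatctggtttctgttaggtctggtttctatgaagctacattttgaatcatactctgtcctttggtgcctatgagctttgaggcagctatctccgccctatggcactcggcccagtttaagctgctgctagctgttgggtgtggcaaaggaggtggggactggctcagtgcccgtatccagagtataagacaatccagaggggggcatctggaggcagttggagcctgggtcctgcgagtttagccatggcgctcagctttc
Cyp3a13: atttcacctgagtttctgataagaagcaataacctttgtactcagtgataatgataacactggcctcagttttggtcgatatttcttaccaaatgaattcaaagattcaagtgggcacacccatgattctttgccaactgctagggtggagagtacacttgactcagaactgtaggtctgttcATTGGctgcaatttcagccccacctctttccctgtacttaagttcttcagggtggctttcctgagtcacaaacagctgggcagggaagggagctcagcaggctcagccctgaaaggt
Fmo2: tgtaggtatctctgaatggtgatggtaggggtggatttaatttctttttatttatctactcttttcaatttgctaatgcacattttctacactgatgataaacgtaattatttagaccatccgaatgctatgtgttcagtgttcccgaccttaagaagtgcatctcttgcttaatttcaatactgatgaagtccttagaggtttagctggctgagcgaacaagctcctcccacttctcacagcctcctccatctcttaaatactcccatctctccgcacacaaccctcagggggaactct
In these windows Por had 3 matches to GCGTG and 67.3% G and C, Cyp3a13 had 1 to CCAAT, and Cyp4b1 and Fmo2 had no match to any of the 6 motifs searched on both strands. These were GCGTG, the nuclear receptor half-site AGGTCA, the DR1 repeat (that half-site repeated in the same direction after 1 base, so every match also holds the half-site), the antioxidant element core TGACNNNGC, the CCAAT box and the TATA box TATAAA. Of the 18 tested genes 13 had a RefSeq window, and 5 of these held GCGTG (Cyp1b1, Cyp20a1, Cyp4f16, Cyp4v3 and Por), against 32.5% of the 27025 windows of all genes. AGGTCA, the half-site of nuclear receptors, was in 0 of the 13 and 16% of all windows, and CCAAT in 5 of the 13 and 38.0% of all. A match is a string of letters, and none was tested for binding.

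Por, the reductase, was higher in both genotypes that lack ACLY. The WT libraries had 3517, 3210.2, 3061 and 3281 normalized counts of Por (replicates in order, here and below), and the ACLY KO libraries had 5605, 5447, 5706 and 5694. The ACSS2 KO libraries had 2851, 2862 and 2687, and the DKO1 libraries had 4443, 4894 and 5595. Every ACLY KO and DKO1 library was above every WT and ACSS2 KO library, and DKO1 replicate 4 was the highest of its group. On the log2(value + 1) scale used for all fold changes here, Por rose by 0.78 ± 0.07 (SE) in ACLY KO against WT (limma, adjusted p = 9.66e-07), by 0.60 ± 0.0756 in DKO1 against WT (limma, adjusted p = 1.91e-05) and by 0.82 ± 0.0809 in DKO1 against ACSS2 KO (limma, adjusted p = 2.02e-06). In ACSS2 KO against WT it was lower by a log2 difference of -0.22 ± 0.0756 (limma, adjusted p = 0.047). That last call was lost without any 1 of WT replicates 1, 2 and 4 and ACSS2 KO replicates 1, 2 and 4, with log2 values between -0.24 and -0.19. It was also lost with equal library totals (-0.11, limma, adjusted p = 0.236) and with quantile normalization (-0.16, limma, adjusted p = 0.139). In bulk RNA, fewer expressing cells and less RNA per cell cannot be told apart.

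In the fatty acid class, Cyp4b1, which hydroxylates fatty acids and activates some furan toxins, had the highest level. Its normalized counts were 967, 1079, 869.8 and 843 in the WT libraries, 2577, 2609, 2650.4 and 2872 in those of ACLY KO, 809, 807 and 806 in those of ACSS2 KO and 2633, 2712 and 3733 in those of DKO1. The 7 libraries without ACLY did not overlap the 7 with it. Cyp4b1 rose by 1.52 ± 0.107 (SE) on the log2 scale in ACLY KO against WT (limma, adjusted p = 1.1e-07) and by 1.67 ± 0.115 in DKO1 against WT (limma, adjusted p = 9.14e-08). DKO1 and ACLY KO differed by 0.16 ± 0.115, which did not pass the test (limma, adjusted p = 0.335).

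Cyp4a12a and Cyp4a12b, neighbouring omega-hydroxylases of fatty acids and arachidonic acid on chromosome 4, were low in WT and rose in ACLY KO and further in DKO1. Cyp4a12b (chr4:115411624-115439034 in GRCm38, plus strand) had 73.7, 77.9, 77.0 and 71.2 normalized counts in the WT libraries, 276, 296, 313 and 288 in those of ACLY KO, 53.5, 67.6 and 43.9 in those of ACSS2 KO and 778, 836 and 559 in those of DKO1. Cyp4a12a (chr4:115299046-115332815, plus strand) had 25.5, 24.1, 15.6 and 51.3 in the WT libraries, 121, 141, 119 and 116 in those of ACLY KO, 32.7, 18.5 and 30.3 in those of ACSS2 KO and 227, 222 and 204 in those of DKO1. For both genes the order of the groups was DKO1 above ACLY KO above WT with no overlap between them. Cyp4a12b rose by 1.95 ± 0.138 (SE) in ACLY KO against WT (limma, adjusted p = 1.14e-07), by 3.23 ± 0.149 in DKO1 against WT (limma, adjusted p = 2.77e-09) and by 1.28 ± 0.149 in DKO1 against ACLY KO (limma, adjusted p = 4.47e-05). Cyp4a12a rose by 2.18 ± 0.279 in ACLY KO against WT (limma, adjusted p = 2.55e-05), while its difference between DKO1 and ACLY KO, 0.81 ± 0.302, did not pass (limma, adjusted p = 0.0639). In ACSS2 KO against WT, Cyp4a12b was lower by a log2 difference of -0.46 ± 0.149 (limma, adjusted p = 0.037), a call that was lost without any 1 of the 4 WT libraries or of ACSS2 KO replicates 1 and 4, with log2 values between -0.49 and -0.31.

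Of the 75-base stretches in the Cyp4a12a transcript models, 40.8% also occur in Cyp4a12b, so reads could be split between the genes by the counting, and their separate values are uncertain. Summed over the pair, normalized counts were 104 ± 12.9 for WT (SD, n = 4) and 82.1 ± 6.91 for ACSS2 KO (SD, n = 3), against 417 ± 19.9 for ACLY KO (SD, n = 4) and 942 ± 157 for DKO1 (SD, n = 3). Cyp4a12b held on average between 66.6% and 76.6% of the sum in each genotype. The order of the groups for the sum was therefore that of each gene.

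Cyp4v3, a hydroxylase of medium-chain fatty acids, went the other way. It had 53.9, 52.6, 54.8 and 53.7 normalized counts in the WT libraries, 14.3, 12.3, 10.3 and 14.9 in those of ACLY KO, 129, 114 and 146 in those of ACSS2 KO and 14.3, 16.4 and 13.7 in those of DKO1. It fell by 1.99 on the log2 scale (SE 0.138) in ACLY KO against WT (limma, adjusted p = 9.66e-08) and by 1.79 (SE 0.149) in DKO1 against WT (limma, adjusted p = 4.78e-07), and rose by 1.25 ± 0.149 in ACSS2 KO against WT (limma, adjusted p = 4.7e-05). The ACSS2 KO libraries were above all WT libraries, and the ACLY KO and DKO1 libraries were below them and overlapped each other. Genes within 5 Mb of Cyp4v3 had a median log2 difference of -0.36 in ACLY KO against WT, and the part of this shift in the result was not tested. Of the 75-base stretches of Cyp4v3, 6.4% also occur in Gm45753.

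The Cyp4f genes, whose family hydroxylates leukotrienes and long-chain fatty acids, showed smaller differences. Cyp4f13 rose in all 3 knockout genotypes against WT, by log2 differences of 0.90 ± 0.107 (SE) for ACLY KO, 0.88 ± 0.116 for ACSS2 KO and 0.74 ± 0.116 for DKO1 (limma, adjusted p = 1.32e-05, 0.000103 and 0.000132). Cyp4f16 rose by 0.31 ± 0.0997 in ACLY KO (limma, adjusted p = 0.0205) and by 0.57 ± 0.108 in DKO1 (limma, adjusted p = 0.000561). The ACLY KO call for Cyp4f16 was lost without WT replicate 4 (0.29) or ACLY KO replicate 4 (0.27), and 14.9% of its 75-base stretches also occur in Cyp4f37. Cyp4f17 fell by 1.02 (SE 0.288) in ACLY KO against WT (limma, adjusted p = 0.0101) and rose by 1.54 ± 0.311 in ACSS2 KO against WT (limma, adjusted p = 0.00257) and by 1.91 ± 0.311 in DKO1 against ACLY KO (limma, adjusted p = 0.000619). In DKO1 against WT Cyp4f17 was higher by 0.89 ± 0.311 (limma, adjusted p = 0.0275), with overlapping libraries, and this call was lost without WT replicate 2 (0.74), WT replicate 3 (0.72), DKO1 replicate 1 (0.80) or DKO1 replicate 3 (0.76).

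Cyp2u1, which hydroxylates long-chain fatty acids, passed only in DKO1 against ACLY KO among the 5 pairwise comparisons, where it was higher by 1.09 ± 0.307 (SE) on the log2 scale (limma, adjusted p = 0.0184). The call was lost without ACLY KO replicate 2 (0.89), ACLY KO replicate 3 (0.98) or DKO1 replicate 3 (1.0). Genes within 5 Mb of Cyp2u1 had a median log2 difference of 0.25 in that comparison and 0.59 in DKO1 against WT, and their part in the result was not tested. Reads from 11% of its 75-base stretches could also come from 4930534D22Rik. Cyp2u1 and Cyp4f17 were both low. Each had a mean under 50 normalized counts over all libraries and a value under 10 in some library.

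**Figure D2:**
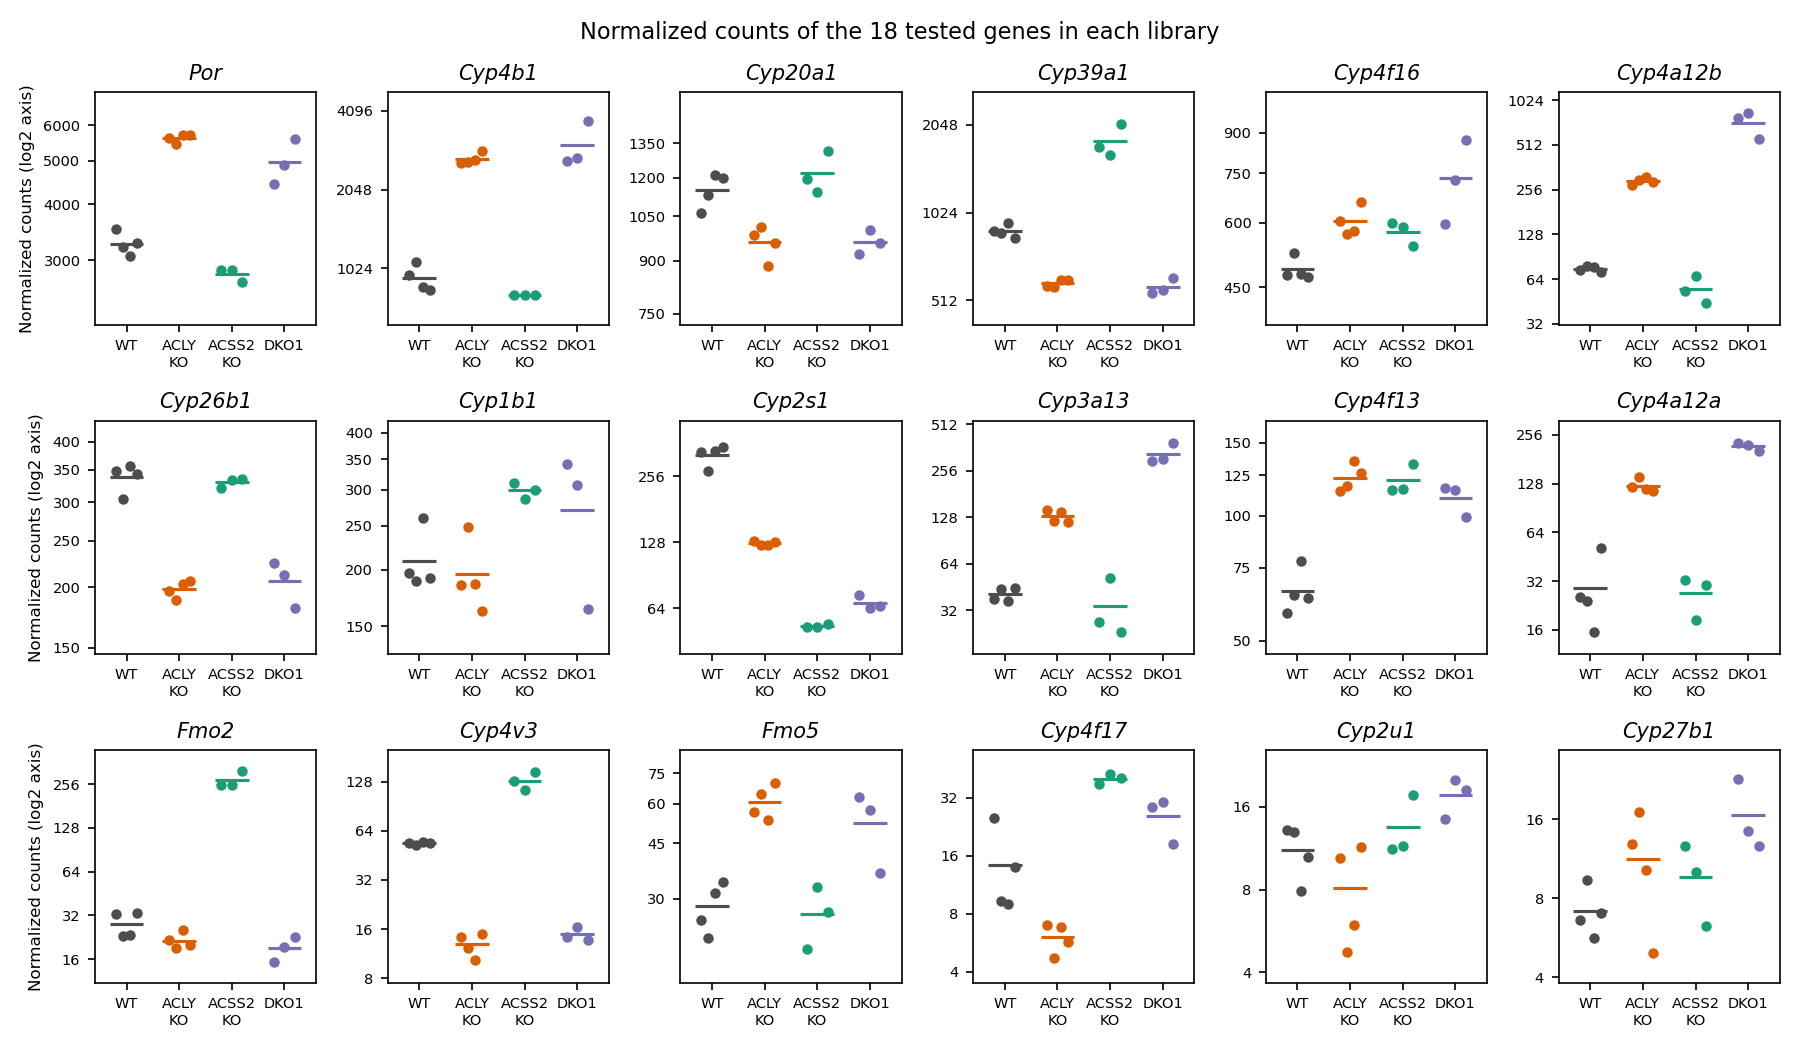
Each panel shows a tested gene, with normalized counts per library on a log2 y axis and the 4 genotypes on the x axis. Points are libraries (4 WT, 4 ACLY KO, 3 ACSS2 KO, 3 DKO1) and horizontal bars are group means, and the panels of Por, Cyp4b1, Cyp4a12b, Cyp4a12a and Cyp3a13 show the ACLY KO and DKO1 points above all WT points, while Fmo2 stands out in ACSS2 KO at 253 to 316.

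In the xenobiotic class 3 genes were tested, and each had a pattern of its own. Cyp3a13, of the family that oxidizes drugs and steroids, had 38.0, 44.0, 36.8 and 44.4 normalized counts in the WT libraries, 143, 120.1, 139 and 119 in those of ACLY KO, 26.6, 51.9 and 23.1 in those of ACSS2 KO and 297, 305 and 388 in those of DKO1. It was the only Cyp3a gene of 9 that was tested. Its DKO1 libraries were above its ACLY KO libraries, and these were above all WT and ACSS2 KO libraries. Cyp3a13 rose by 1.65 ± 0.204 (SE) on the log2 scale in ACLY KO against WT (limma, adjusted p = 1.84e-05), by 2.98 ± 0.22 in DKO1 against WT (limma, adjusted p = 1.62e-07) and by 1.33 ± 0.22 in DKO1 against ACLY KO (limma, adjusted p = 0.000696).

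Cyp2s1, an epithelial P450 that dioxin can induce, was lower in all 3 knockout genotypes. It had 329.7, 271, 334 and 347 normalized counts in the WT libraries, 129, 124, 124 and 128 in those of ACLY KO, 52.3, 52.5 and 54.0 in those of ACSS2 KO and 73.4, 64.0 and 65.3 in those of DKO1. No genotype overlapped another. Against WT the log2 differences of Cyp2s1 were -1.33 ± 0.0883 (SE) for ACLY KO, -2.57 ± 0.0954 for ACSS2 KO and -2.22 ± 0.0954 for DKO1 (limma, adjusted p = 6.5e-08, 5.76e-09 and 1.55e-09). In DKO1 it was below ACLY KO by a log2 difference of -0.90 ± 0.0954 (limma, adjusted p = 2.17e-05) and above ACSS2 KO by 0.34 ± 0.102 (limma, adjusted p = 0.0123). A fit of only DKO1 and ACSS2 KO did not pass. Of the Cyp2s1 stretches 6.0% also occur in Gm26707.

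Cyp1b1, which oxidizes estradiol and aromatic hydrocarbons and is a textbook target of AHR, was the tested gene that passed in none of the 5 pairwise comparisons. Its largest log2 difference was 0.53 ± 0.221 (SE) in ACSS2 KO against WT (limma, adjusted p = 0.104), with no overlap between the libraries of these groups. Its means were 209 ± 33.8 normalized counts for WT (SD, n = 4) and 195 ± 37.0 for ACLY KO (SD, n = 4), against 299 ± 12.2 for ACSS2 KO (SD, n = 3) and 271 ± 94.1 for DKO1 (SD, n = 3).

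The bile acid class was represented by Cyp39a1, which hydroxylates oxysterols. It had 882, 868, 941 and 841 normalized counts in the WT libraries, 573, 569.6, 599 and 603 in those of ACLY KO, 1724, 1616 and 2068 in those of ACSS2 KO and 542, 557 and 609 in those of DKO1. The ACSS2 KO libraries were above all others, and the ACLY KO and DKO1 libraries were below all WT libraries and overlapped each other. Cyp39a1 fell by 0.59 on the log2 scale (SE 0.0764) in ACLY KO (limma, adjusted p = 2.84e-05) and by 0.63 (SE 0.0825) in DKO1 (limma, adjusted p = 2.64e-05), and rose by 1.02 ± 0.0825 in ACSS2 KO against WT (limma, adjusted p = 1.77e-06). The 4 other bile acid genes above 0 (Cyp7a1, Cyp7b1, Cyp27a1 and Cyp46a1) had a highest value in any library of 6.53. In the steroid class the summed means of the 6 genes were 1.39 for WT, 3.73 for ACLY KO, 1.25 for ACSS2 KO and 8.42 for DKO1, under the level needed for a test.

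Of the vitamin A and D genes, Cyp26b1, which breaks down retinoic acid, fell by 0.76 on the log2 scale (SE 0.0788) in ACLY KO and by 0.72 (SE 0.0851) in DKO1 against WT (limma, adjusted p = 3.53e-06 and 1.19e-05). In ACSS2 KO against WT its log2 difference was -0.03 ± 0.0851 (limma, adjusted p = 0.831). Genes within 5 Mb of Cyp26b1 had a median log2 difference of -0.37 in both ACLY KO and DKO1 against WT, and their part in the result was not tested. Cyp27b1, the mitochondrial enzyme that makes active vitamin D, reached the test only through its level in DKO1, so its log2 difference of 1.08 ± 0.371 from WT (limma, adjusted p = 0.0249) is given as a description. It did not pass without WT replicate 3 (0.99). Cyp20a1 was lower by a log2 difference of -0.26 in both ACLY KO and DKO1 against WT (SE 0.068 and 0.0734, limma, adjusted p = 0.00632 and 0.00887). Neither call held with equal library totals, where the log2 differences were -0.15 and -0.19 (limma, adjusted p = 0.132 and 0.0661).

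Fmo2, the main flavin monooxygenase of the lung in many mammals, was high in ACSS2 KO. It had 32.6, 23.2, 23.6 and 33.0 normalized counts in the WT libraries, 21.7, 19, 25.2 and 20.1 in those of ACLY KO, 253, 253 and 316 in those of ACSS2 KO and 15.4, 19.5 and 22.7 in those of DKO1. The ACSS2 KO libraries were all above every other library, and DKO1, which also lacks ACSS2, lay within or below the range of ACLY KO. Fmo2 rose by 3.25 ± 0.182 (SE) on the log2 scale in ACSS2 KO against WT (limma, adjusted p = 9.58e-08), the largest rise among the 18 genes in that comparison. In DKO1 against ACLY KO its log2 difference was -0.17 ± 0.182 (limma, adjusted p = 0.531). In DKO1 against WT it was lower, at -0.52 ± 0.182 (limma, adjusted p = 0.0266), a call that was lost without WT replicate 1 (-0.45), WT replicate 4 (-0.44) or DKO1 replicate 1 (-0.38). Fmo5, which inserts oxygen next to ketones, rose by 1.08 ± 0.203 in ACLY KO and by 0.84 ± 0.219 in DKO1 against WT (limma, adjusted p = 0.000598 and 0.00562).

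Counted over the 18 tested genes at an adjusted p under 0.05, 8 rose and 6 fell in ACLY KO against WT. Over all 12693 genes tested in that comparison, 23.8% were called higher and 24.7% lower. In DKO1 against WT 10 rose, Cyp27b1 among them, and 6 fell (27.9% and 28.1% of all genes), and in ACSS2 KO against WT 5 rose and 3 fell (15% and 11% of all genes). In DKO1 against ACLY KO 4 rose and 1 fell (14.3% and 13.6% of all genes), and in DKO1 against ACSS2 KO 8 rose and 5 fell (25.9% and 27.8% of all genes). Without DKO1 replicate 4 and WT replicate 2, the counts higher and lower were 8 and 7 in ACLY KO against WT, 11 and 6 in DKO1 against WT, 7 and 4 in ACSS2 KO against WT, 5 and 2 in DKO1 against ACLY KO and 7 and 5 in DKO1 against ACSS2 KO. The share of all genes called was then larger too, between 21.3% and 35.1%. The 3 falls in ACSS2 KO against WT became 1 without any 1 of WT replicates 1, 2 and 4 and ACSS2 KO replicates 1 and 4. Groups did not overlap for 14 of the 18 genes in ACLY KO against WT (53.1% of all genes), 16 in DKO1 against WT (47.6%), 11 in ACSS2 KO against WT (42.8%), 6 in DKO1 against ACLY KO (34.5%) and 13 in DKO1 against ACSS2 KO (58.2%).

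At stricter limits, an absolute log2 difference over 1.5 with an adjusted p under 0.01, 4 of the 18 genes were higher and 1 lower in ACLY KO against WT (4.62% and 4.18% of all genes), 4 and 2 in DKO1 against WT (5.31% and 4.53%) and 2 and 1 in ACSS2 KO against WT (1.65% and 0.772%). In DKO1 against ACLY KO 1 was higher and 0 lower (1.01% and 1.06% of all genes), and in DKO1 against ACSS2 KO 4 were higher and 3 lower (5.17% and 6.13%). For the difference of effects described below 3 were positive and 1 negative (1.58% and 3.03% of all genes).

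By class, the fatty acid genes were 8 of the 18 tested and held 5 of the 8 rises in ACLY KO against WT, 6 of 10 in DKO1 against WT, 3 of 5 in ACSS2 KO against WT, 3 of 4 in DKO1 against ACLY KO and 4 of 8 in DKO1 against ACSS2 KO. In ACLY KO against WT 5 rose and 2 fell (23.8% and 24.7% of all genes), with a median log2 difference of 0.61 against -0.0065 over all genes tested. In DKO1 against WT 6 rose and 1 fell (27.9% and 28.1% of all genes), with a median of 0.81 against 0.0037 over all genes. In ACSS2 KO against WT 3 rose and 1 fell (15% and 11% of all genes), with a median of 0.25 against 0.00093. In DKO1 against ACLY KO 3 rose and none fell by limma (5 and 0 at an unadjusted p under 0.05, 14.3% and 13.6% of all genes called), with a median of 0.54 against -0.0051. In DKO1 against ACSS2 KO 4 rose and 1 fell (25.9% and 27.8% of all genes), with a median of 0.35 against 0.0059. Without DKO1 replicate 4 and WT replicate 2 the fatty acid counts were 5 and 2, 6 and 1, 4 and 2, 3 and 0, and 3 and 1 in the same order of comparisons. The shares of all genes were then 33.9% and 35.1%, 33.9% and 34.7%, 24.5% and 23.6%, 21.3% and 22.1%, and 32.5% and 34.2%. Among the fatty acid rises Cyp4a12a and Cyp4a12b count separately, although reads could be split between them. The Cyp4f17 rise in DKO1 against WT also counts, as do the Cyp4f17 and Cyp2u1 rises in DKO1 against ACLY KO, with the limits given above. The other classes had at most 3 tested genes each. In ACLY KO against WT 1 of the 3 xenobiotic genes rose and 1 fell, the bile acid gene fell, and no steroid gene was tested. No test compared the classes.

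Summed over all genes of a class without correction for length, so that levels compare between genotypes only, the fatty acid class had means of 1683 normalized counts for WT, 3872 for ACLY KO, 1779 for ACSS2 KO and 4895 for DKO1. Cyp4b1 had the highest level of the class in each genotype. The xenobiotic class had 589, 489, 408 and 748 in the same order, and in DKO1 Cyp3a13 and Cyp1b1 held most of the sum. The bile acid class had 889, 593, 1807 and 574, which is nearly Cyp39a1 alone.

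Loss of ACLY can be read in either background: ACLY KO against WT, with ACSS2 present, and DKO1 against ACSS2 KO, without it. These comparisons share no library, although the ACLY KO and DKO1 cells share the same Cre event. Of the 14 genes called in the first and 13 in the second, 11 were called in the same direction, which is 78.6% of the first list and 84.6% of the second. Over all genes tested the same-direction share was 65.2% of the first list and 58.9% of the second. Cyp3a13, Cyp4a12a, Cyp4a12b, Cyp4b1, Cyp4f16, Fmo5 and Por were higher in both, and Cyp20a1, Cyp26b1, Cyp39a1 and Cyp4v3 were lower in both. In DKO1 against ACSS2 KO the log2 differences were 3.70 for Cyp4a12b, 3.33 for Cyp3a13, 3.00 for Cyp4a12a, 1.89 for Cyp4b1, 0.92 for Fmo5 and 0.33 for Cyp4f16. On the lower side they were -0.34 for Cyp20a1, -0.68 for Cyp26b1, -1.66 for Cyp39a1 and -3.04 for Cyp4v3. The Cyp4f16 call was lost in DKO1 against ACSS2 KO without ACSS2 KO replicate 2 (0.34), ACSS2 KO replicate 4 (0.28), DKO1 replicate 3 (0.32) or DKO1 replicate 4 (0.20). Cyp2s1 was called in opposite directions, lower in the first and higher in the second.

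**Figure D3:**
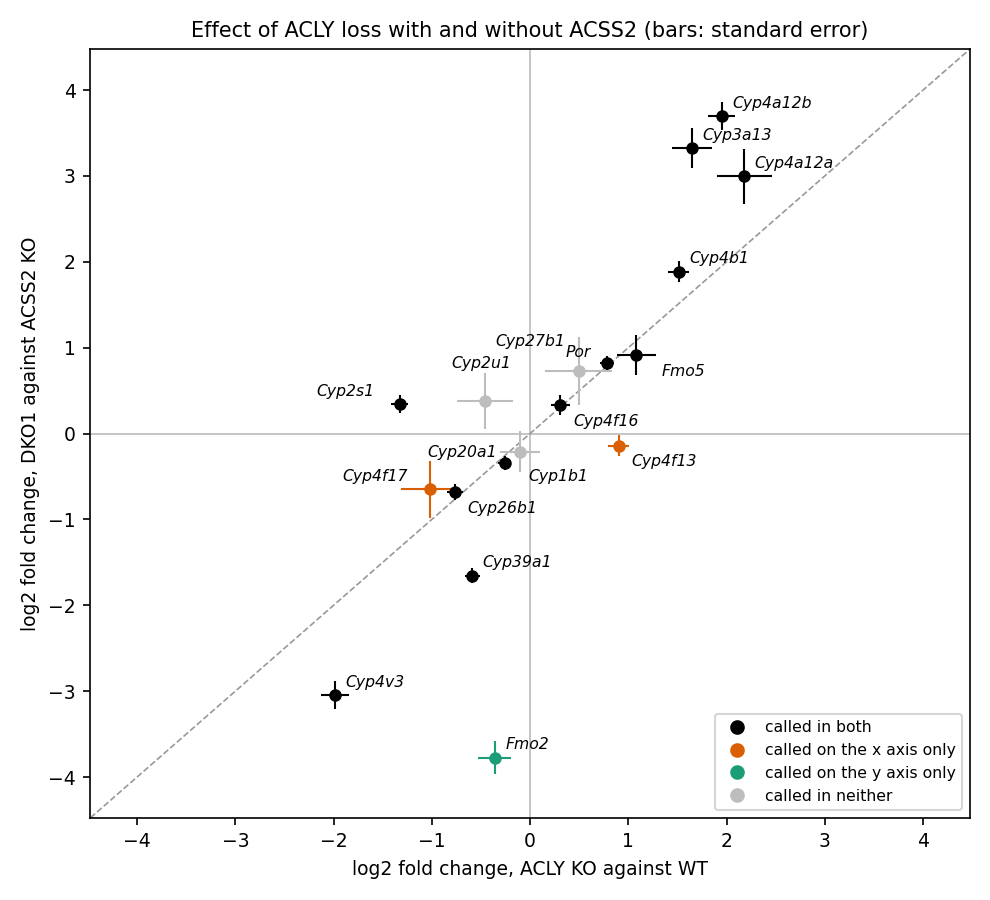
The log2 difference of each tested gene in ACLY KO against WT (x axis) is plotted against that in DKO1 against ACSS2 KO (y axis), with bars for 1 standard error and the dashed line for equal values. Black points passed in both comparisons, orange on the x axis only, green on the y axis only and grey in neither, and Cyp4a12b, Cyp3a13, Cyp4a12a and Cyp4b1 lie in the upper right with Cyp4v3 in the lower left.

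Loss of ACSS2 can likewise be read with ACLY present (ACSS2 KO against WT) and without it (DKO1 against ACLY KO), in comparisons that share no library. Of the 8 genes called in the first and 5 in the second, 2 were called in the same direction, Cyp4f17 higher and Cyp2s1 lower, which is 25% of the first list and 40% of the second. Over all genes the same-direction share was 21.2% of the first list and 19.8% of the second. Cyp4a12b was called in opposite directions, lower in the first and higher in the second, with the limit on the first call given above.

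**Figure D4:**
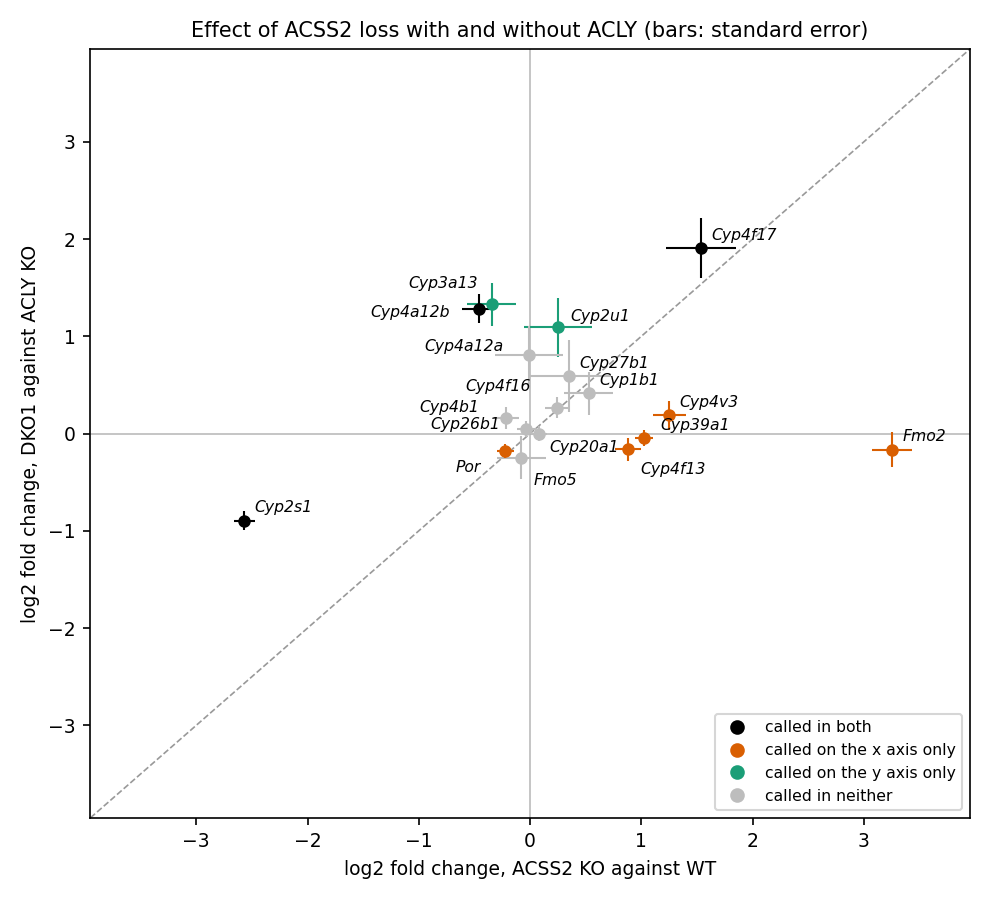
The log2 difference of each tested gene in ACSS2 KO against WT (x axis) is plotted against that in DKO1 against ACLY KO (y axis), with bars for 1 standard error, the dashed line for equal values, black points for genes that passed in both, orange on the x axis only, green on the y axis only and grey in neither. Fmo2 sits far right at 3.25 and -0.17, and Cyp4a12b and Cyp3a13 sit at -0.46 and 1.28 and at -0.35 and 1.33.

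The difference between these effects of ACSS2 loss, that is DKO1 minus ACLY KO less ACSS2 KO minus WT, was tested in the same model. It was positive and passed for 3 of the 18 genes and negative and passed for 4, where 12% and 15.1% of all genes did so. It was 1.74 ± 0.211 (SE) on the log2 scale for Cyp4a12b (limma, adjusted p = 5.77e-05), 1.67 ± 0.311 for Cyp3a13 (limma, adjusted p = 0.00152) and 1.67 ± 0.135 for Cyp2s1 (limma, adjusted p = 1.88e-06). For Cyp2s1 both effects were falls, of which that in WT cells was the larger. It was -3.42 ± 0.258 for Fmo2, -1.07 ± 0.117 for Cyp39a1, -1.06 ± 0.211 for Cyp4v3 and -1.04 ± 0.164 for Cyp4f13 (limma, adjusted p = 1.14e-06, 2.51e-05, 0.00239 and 0.000444). These 4 rose in ACSS2 KO against WT, and none of them passed in DKO1 against ACLY KO.

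Genes that work with the P450 enzymes were counted from 6 lists. Beside these counts, 23.8% of all genes were called higher and 24.7% lower in ACLY KO against WT, and 27.9% and 28.1% in DKO1 against WT. Without DKO1 replicate 4 and WT replicate 2, these shares were 33.9% and 35.1% in ACLY KO and 33.9% and 34.7% in DKO1. Of 9 electron transfer genes other than Por (cytochrome b5, its reductases, ferredoxin, its reductase and heme-binding partners), 3 rose and 3 fell in ACLY KO against WT, with a median log2 difference of -0.04, shares near those of all genes (4 and 4 without both libraries). Pgrmc2 and Pgrmc1, heme-binding partners of P450 enzymes, fell by 0.40 and 0.48, and Cyb5b, a cytochrome b5, rose by 0.37 (limma, adjusted p = 6.73e-05, 0.00205 and 0.00133). In DKO1 against ACLY KO none of the 9 passed by limma, and 3 had an unadjusted p under 0.05. Of 12 genes of heme synthesis and breakdown 2 rose and 2 fell in ACLY KO against WT and 7 rose and 1 fell in DKO1 against WT. Without DKO1 replicate 4 and WT replicate 2 these counts were 4 and 2 and again 7 and 1. In DKO1 replicate 4 several stood apart, such as Blvra, the other biliverdin reductase, named after its values were seen, with 1005, 1125 and 2278 normalized counts in DKO1 replicates 1, 3 and 4. In ACLY KO against WT Alas1, the rate-limiting enzyme of heme synthesis, rose by 0.26, Blvrb, a biliverdin reductase, rose by 1.38, and Cpox, a later enzyme of heme synthesis, fell by 0.36 (limma, adjusted p = 0.00383, 0.000528 and 0.000111).

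Of 15 receptors and regulators of P450 genes 8 were tested, and 2 rose and 2 fell in ACLY KO against WT (2 and 3 without both libraries). Nr1i2 and Nr1i3, the pregnane and androstane receptors, were at most 1.59 normalized counts in any library. Hnf4a, a master regulator of hepatocyte genes, fell in the 3 knockout genotypes against WT, with log2 differences of -2.59 for ACLY KO, -2.10 for ACSS2 KO and -2.90 for DKO1 (limma, adjusted p = 7.99e-07, 3.91e-05 and 5.5e-07). Cebpa, another liver transcription factor, fell by 1.81 in ACLY KO and by 1.44 in DKO1 and rose by 0.97 in ACSS2 KO (limma, adjusted p = 2.73e-05, 0.000317 and 0.0116). Nr1h4, the bile acid receptor, rose by 0.63 in ACLY KO against WT (limma, adjusted p = 2.39e-05). Ppara, the receptor known to induce Cyp4a genes, was named after its values were seen. It had a log2 difference of -0.25 in ACLY KO against WT (limma, adjusted p = 0.488) and rose by 1.37 in DKO1 against ACLY KO (limma, adjusted p = 0.00425).

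Of 14 other genes of bile acid synthesis and transport 7 were tested, with 4 higher and 1 lower in ACLY KO and 6 higher and 1 lower in DKO1 against WT. Both counts were 6 and 1 without DKO1 replicate 4 and WT replicate 2, although Acot8, a peroxisomal thioesterase named after its values were seen, had 234, 325 and 603 normalized counts in DKO1 replicates 1, 3 and 4. In ACLY KO the side-chain enzymes Acox2 and Amacr rose by 1.37 and 1.0, and Fgfr4, the receptor that represses bile acid synthesis, fell by 2.73 (limma, adjusted p = 6.44e-05, 1.75e-05 and 1.39e-05). Of 12 genes of epoxide hydrolysis and eicosanoid synthesis 6 were tested, with 4 higher and none lower by limma in ACLY KO (4 and 0 at an unadjusted p under 0.05) and 4 higher and 1 lower in DKO1 against WT (5 and 0, and 4 and 1, without both libraries). Ephx1, the microsomal epoxide hydrolase, had 842, 902, 928 and 851 normalized counts in WT and 2610, 2691, 2600 and 2579 in ACLY KO. It rose against WT by 1.57 for ACLY KO, 0.79 for ACSS2 KO and 1.79 for DKO1 on the log2 scale (limma, adjusted p = 3.2e-10, 1.45e-06 and 2.92e-10). Ptgs1, a cyclooxygenase, rose by 0.87 in ACLY KO against WT (limma, adjusted p = 4.26e-06). Ptgis is the prostacyclin synthase and itself a P450 by structure. Its means were 3.58 for WT and 4.07 for ACSS2 KO, against 21.4 for ACLY KO and 33.1 for DKO1. It reached the test only through the genotypes without ACLY. Its log2 difference of 2.28 in ACLY KO against WT (limma, adjusted p = 1.3e-05) is therefore given as a description. Ptgis is among the rises of its list counted above. Of 15 other steroid metabolism genes, 9 were tested. In ACLY KO against WT 5 rose, Hsd11b1 among them, and none fell by limma (5 and 0 at an unadjusted p under 0.05, and also without both libraries). Of these Hsd17b12 and Srd5a3 rose by 0.29 and 0.52 (limma, adjusted p = 0.00027 and 0.000946). Hsd11b1, which regenerates active glucocorticoid, reached the test only through ACLY KO, since its mean was 12.1 over all libraries and 7.87 without that genotype, and its log2 difference of 2.24 (limma, adjusted p = 0.0027) is given as a description.

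Markers of other cell types moved with some of these groups. Summed over 6 fibroblast and stellate cell markers, normalized counts were between 623 and 734 for WT, 2980 and 3335 for ACLY KO, 1438 and 1492 for ACSS2 KO and 1253 and 1535 for DKO1. These 6 markers did not move together. Col1a1 led the ACLY KO sum (mean 2454, against 428 in WT and 477 in DKO1). Dcn led the ACSS2 KO sum (820, against 154 in WT), and Col1a2 and Col3a1 were highest in DKO1 (99.6 and 587). The 7 hepatocyte markers in the table, of which Krt8 and Krt18 made up nearly the whole sum, summed to between 48122 and 65018 for WT, 34625 and 37792 for ACLY KO, 41016 and 43984 for ACSS2 KO and 26207 and 44944 for DKO1. Other markers of that list moved differently, as the group means of Alb, Apob and Ttr given above show. The 5 immune markers summed to 39.8 to 76.2 for WT and 27.4 to 53.3 for ACSS2 KO. For ACLY KO they summed to 61.6 to 101 and for DKO1 to 83.8 to 132. The 4 endothelial markers summed to 18.6 to 28.3 for WT and 10.5 to 18.3 for ACSS2 KO. For ACLY KO they summed to 77.1 to 92.3 and for DKO1 to 40.2 to 51.2. Pecam1 and Cdh5 had means of 61.7 and 18.9 in ACLY KO, against 7.51 and 1.54 in WT. Kdr went the other way (2.21 against 12.9), and Tek had means of at most 0.58. The part of these shifts in the differences of the P450 and Fmo genes was not tested.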

How the data were processed

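RNA-seq of 14 libraries was taken from the table that the authors deposited. Per the labels and methods, the authors prepared directional poly(A) libraries, sequenced 75-base single-end reads, mapped them to GRCm38/mm10 with STAR and scaled them with Illumina software (DESeq2 1.0.1 in the submitters' processing notes). The deposited signal values are normalized counts with decimals, not whole reads: 33.4% to 73.6% of values under 3 fell within 0.01 of a whole multiple of the most frequent low value. Read assignment to genes, its use of strand and the annotation are not given in the sources used here. Because whole reads were not recovered, no count model was used, and precision rests on the spread between libraries.

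Samples were grouped by their genotype labels. Genes whose mean over the 14 libraries reached 10 were fitted on log2(value + 1) with limma 3.58.1 in R 4.3.3 (intensity trend, 1 coefficient per genotype), and p-values were Benjamini-Hochberg adjusted over all 12693 genes tested, with calls at an adjusted p under 0.05. Of the 24972 rows, 26 written as dates and 4 with a repeated symbol were left out. Fold changes understate those of low genes. Positions, lengths and shared 75-base stretches came from GENCODE vM21 (GRCm38) and promoter windows from RefSeq (GRCm38.p6).

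The genes, classes and lists were chosen with earlier results of these data known. Values in each library are given for Por and for genes that reach a mean of 50, a call and an absolute log2 difference over 1 in a pairwise comparison, of the lists the 3 genes with the smallest adjusted p in ACLY KO against WT are named, and textbook liver P450 genes are named whatever their level. Tested on data simulated for DKO1 against WT with 12507 genes, the procedure recovered 81 of 97 genes changed by 1 on the log2 scale and 103 of 103 changed by 2, with 8 unchanged genes called. The simulated noise was independent between genes and few genes changed. The real libraries shared deviations that ran with transcript length, so these counts do not measure the error rate in them. Alternatives were the added constant, the filter, normalization, transcript length, call limits, the groups in the fit, a replicate block and libraries left out, of which leaving out DKO1 replicate 4 with WT replicate 2 (also for the classes and lists) was chosen after seeing the data.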

Additional observations from a re-analysis of the deposited data

Results flagged for a closer look

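In 36 sets of 4 libraries (the 18 tested genes in WT and in ACLY KO) the highest and lowest library were compared with the rest, and 2 stood apart by Dixon's test, where chance gives about 1 in 20. Cyp1b1 had 259.6 normalized counts in WT replicate 3, with a gap to the next library of 0.9 of the group's range. Cyp4f16 had 525.4 in WT replicate 2, with a gap of 0.867 of the range.

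For 7 genes the effect of ACSS2 loss differed between cells without and with ACLY. The log2 difference of the effects (ACLY KO background minus WT background) was 1.67 for Cyp2s1 (limma, adjusted p = 1.88e-06), 1.67 for Cyp3a13 (limma, adjusted p = 0.00152) and 1.74 for Cyp4a12b (limma, adjusted p = 5.77e-05). It was -3.42 for Fmo2 (limma, adjusted p = 1.14e-06), -1.07 for Cyp39a1 (limma, adjusted p = 2.51e-05), -1.06 for Cyp4v3 (limma, adjusted p = 0.00239) and -1.04 for Cyp4f13 (limma, adjusted p = 0.000444). Each effect of ACSS2 loss rests on 1 clone, so clone and background cannot be told apart.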

How the results depend on the processing

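Of 608 values of single genes under 10 other settings, 589 kept their direction and their side of the threshold, 19 kept their direction and no longer passed, and none reversed. Without 1 or 2 libraries, 523 of 553 kept both, 30 no longer passed and none reversed. These values follow only the 63 results called in the main fit, where the gene was still tested. Calls lost because a filter removed the gene, and new calls, are not counted in them. Replicate numbers did not mark shared batches in the labels: of 18 same-numbered pairs 5 had correlated deviations over 0.1 (range -0.431 to 0.446). With the replicate number as a block, 8 genes were higher and 6 lower in ACLY KO against WT (23.2% and 23.7% of all genes). The calls of Cyp4f17 in DKO1 against WT (0.81) and Por in ACSS2 KO against WT (-0.23) were then lost. Without a filter on low values 73 genes were tested. Of these 15 were higher in ACLY KO against WT (18.5% of all genes then tested), 19 in DKO1 against WT (21.7%) and 19 in DKO1 against ACSS2 KO (19.7%). In DKO1 against ACLY KO 7 were higher and 2 lower (9.45% and 8.68% of all genes). With at least 10 in every library, or a mean of at least 50, 2 were higher in DKO1 against ACLY KO (14.6% and 14.5% of all genes). With an absolute log2 difference over 1.5 and an adjusted p under 0.01, 4 were higher and 1 lower in ACLY KO against WT, 2 and 1 in ACSS2 KO against WT, 4 and 2 in DKO1 against WT, 1 and 0 in DKO1 against ACLY KO, 4 and 3 in DKO1 against ACSS2 KO, and 1 was negative for the difference of effects. With the transcript length correction 5 were positive for the difference of effects (21.3% of all genes). In DKO1 against ACLY KO 2 were lower with that correction, with equal totals, with only the 2 groups in the fit and without DKO1 replicate 4, and between 1 and 2 without any library or without DKO1 replicate 4 and WT replicate 2. In ACSS2 KO against WT 1 was lower with equal totals, and between 1 and 3 without 1 library (1 without WT replicates 1, 2 or 4 or ACSS2 KO replicates 1 or 4). Equal totals moved the median of all genes by 0.10 in ACLY KO and 0.11 in ACSS2 KO against WT and by -0.16 for the difference of effects, and the Cyp20a1 calls in ACLY KO (-0.15) and DKO1 (-0.19) were then lost. Fewer genes and stricter limits lower counts by construction; the cause of the other changes was not tested. Precision rests on 3 or 4 libraries a genotype, and genes under 10 were below what was tested.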
